A study of Homo sapiens with 5 samples.

Results

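The genes for 10 feedback inhibitors of mitogen-activated protein kinase (MAPK) signalling were examined for ChIP-Seq peaks of the transcription factors Fra-1, MYC and E2F1 in LM2 breast cancer cells. The genes were chosen by name from the 20098 protein-coding genes annotated on chromosomes 1 to 22 and X. They are the dual-specificity phosphatase genes DUSP1, DUSP4, DUSP5 and DUSP6, the Sprouty genes SPRY1, SPRY2 and SPRY4, and the Sprouty-related genes SPRED1, SPRED2 and SPRED3. Each locus was taken as the gene, its promoter windows and 50 kb on either side, where a promoter window runs from 2 kb upstream to 2.5 kb downstream of any annotated transcription start site (TSS). Of the 59069 peaks in the 3 lists, 147 overlapped the 10 loci.

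Growth factor receptors signal through Ras, Raf and MEK to the MAPK ERK, and ERK in turn raises the transcription of genes whose products shut the pathway down. Dual-specificity phosphatases remove the activating phosphates from MAPKs in the nucleus (DUSP1, DUSP4, DUSP5) or the cytoplasm (DUSP6), whereas Sprouty and SPRED proteins act upstream, between the receptor and Raf. Fra-1 is an AP-1 subunit that ERK stabilises, MYC is a growth-promoting factor that binds E-boxes with MAX, and E2F1 is a factor of the cell cycle that acts at promoters.

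LM2 cells are a derivative of the triple-negative breast cancer line MDA-MB-231 that was selected for metastasis to the lung. The cells were fixed with formaldehyde, and chromatin was precipitated with an antibody against Fra-1, c-Myc or E2F1. A figure legend of the paper lists LM2 cells with a control vector or an shRNA as those used for ChIP-Seq. Which of them gave these libraries is not stated there. Each factor has 1 library of this 1 line, and all 3 were compared by the authors with the same input DNA. No peak lists of the EZH2 and input libraries were used here. Without replicates no difference between factors or genes could be tested, and the 95% intervals below are exact Poisson intervals on the number of ChIP fragments at a summit, so they cover counting error only and leave out the error of the input.

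After removal of duplicate positions the libraries held between 12931227 (Fra-1) and 23853621 (MYC) tags and the input held 10758036. The full lists on these chromosomes held 17311 Fra-1, 4857 MYC and 36901 E2F1 peaks. Fold enrichment is the height of the peak relative to the background estimated from the input, after 1 is added to each. Because the libraries differ in depth, fold enrichments were set against each other only within a library.

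E2F1 peaks were found in the promoter windows of all 10 genes, Fra-1 peaks in those of 6 and MYC peaks in those of 3. Among all protein-coding genes, a promoter window held a peak in 61.3% (E2F1), 13.2% (Fra-1) and 17.8% (MYC). The 6 genes with Fra-1 were DUSP1, DUSP5, DUSP6, SPRY1, SPRED2 and SPRED3, and the 3 genes with MYC were DUSP6, SPRY1 and SPRED1. DUSP6 and SPRY1 had promoter peaks of all 3 factors, as did 4.67% of protein-coding genes. The genes have between 1 and 8 annotated start sites, and with 1 canonical TSS per gene DUSP5 lost its Fra-1 promoter peak, which left 5 genes with Fra-1 against 7.24% of protein-coding genes. With each list reduced to 4867 peaks, the number in the shortest list, DUSP5 and DUSP6 were the 2 genes left with a Fra-1 promoter peak, against 3.43% of protein-coding genes, so the count of 6 rests on weaker peaks of the longer list. The MYC list is the shortest and loses no peak by this restriction. The E2F1 count was 8, without SPRY2 and SPRED1, against 25.7%.

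**Figure D1:**
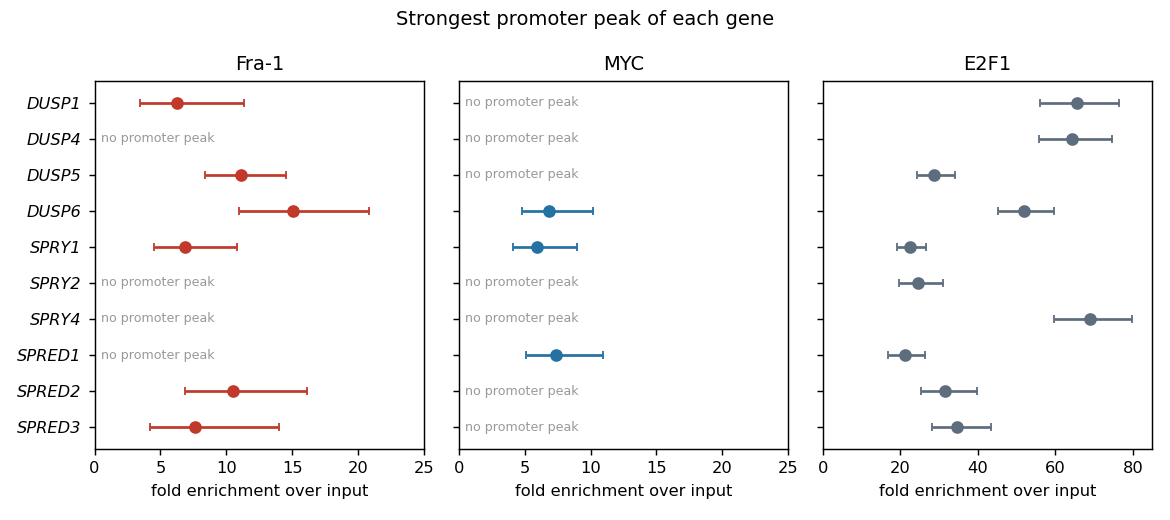
Fold enrichment of the strongest promoter peak of each gene (points) with 95% counting intervals (bars), for Fra-1, MYC and E2F1. The E2F1 axis is longer; SPRY4, DUSP1, DUSP4 and DUSP6 lie between 51.9 and 68.9 there and the other 6 genes between 21.1 and 34.7.

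Counting all 147 peaks, 102 were of E2F1, with 48 in promoter windows, 10 in the rest of the genes and 44 in the flanks. Of the 39 Fra-1 peaks, 11 were in promoter windows, 4 in the rest of the genes and 24 in the flanks. Of the 6 MYC peaks, 3 were in promoter windows and 3 in the flanks. Thus most Fra-1 peaks of these loci lay outside promoter windows. Fra-1 summits had a median distance of 19.4 kb from the canonical TSS, against 3.55 kb for E2F1. These distances leave out alternative start sites, and neighbouring E2F1 peaks were not merged for them. Shares and distances over the full lists were not computed, and the paper reports that Fra-1 was found more often at introns or enhancers across the genome.

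DUSP1 encodes an immediate early phosphatase of JNK, p38 and ERK, and it had the densest Fra-1 binding of the 10 genes. Its locus on chromosome 5 held 9 Fra-1 peaks, or 8.73 per 100 kb, which is at percentile 99.9 of protein-coding genes. The strongest pair lay upstream, at −7162 bp with a fold enrichment of 23.7 (17.3 to 32.3) and at −6408 bp with 17.4 (11.9 to 25.5). The 3 promoter peaks were weaker, with 6.25 (3.47 to 11.3) at −161 bp, 5.91 (3.63 to 10.5) at −1324 bp and 4.22 (2.59 to 7.22) at −1679 bp. An E2F1 peak overlapped each of the upstream pair, with 11.7 (8.02 to 17.4) and 7.65 (5.18 to 11.7), and both overlap promoter windows of non-coding genes (ENSG00000253736 and a Y_RNA). E2F1 was strongest at +40 bp, in the 5' UTR of exon 1, with 65.4 (56.1 to 76.5), and it had 16 peaks in the locus. This E2F1 peak and the 3 Fra-1 promoter peaks also overlap windows of the non-coding genes ENSG00000253736 and ENSG00000289170. The strongest E2F1 promoter peaks of DUSP4 and SPRY4 likewise overlap windows of non-coding genes. No MYC peak was called in the DUSP1 locus.

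The AP-1 word TGACTCA, which reads TGAGTCA on the opposite strand, is the DNA sequence bound by Fos-Jun pairs such as those with Fra-1. It lay within 50 bp of both upstream Fra-1 summits of DUSP1 but of none of its 3 promoter summits. Both are shown because they mark the largest Fra-1 fold enrichments of the 10 loci, and they were chosen after their values were seen. By −log10 q the peak at −6408 bp, with 30.1, was below others, such as that at +15.1 kb of DUSP5, with 41.3. The promoter stretch is shown because it holds a CRE word and next to it an E-box (CACGTG), both upstream of the start site. The CRE word (TGACGTCA, bound by CREB and ATF proteins) is 40 bp from the Fra-1 summit. Both words lie under the E2F1 peak but outside the called Fra-1 peak, and no MYC peak lies there. Sequences are of GRCh37 on the minus strand, that of the gene, with AP-1, CRE and E-box words in capitals.
DUSP1 upstream, chr5:172205282-172205348: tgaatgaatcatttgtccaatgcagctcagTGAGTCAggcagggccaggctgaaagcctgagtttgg
DUSP1 upstream, chr5:172204553-172204619: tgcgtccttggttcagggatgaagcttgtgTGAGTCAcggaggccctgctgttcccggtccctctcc
DUSP1 promoter, chr5:172198291-172198359: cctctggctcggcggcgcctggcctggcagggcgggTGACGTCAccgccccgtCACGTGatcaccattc

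DUSP4, a nuclear phosphatase of ERK and JNK, had no Fra-1 or MYC peak in its promoter windows. Its 1 Fra-1 peak, with a fold enrichment of 6.16 (4.04 to 9.48), lay in intron 1 at +9262 bp, under an E2F1 peak of 21.6 (17.2 to 27.2). E2F1 peaks ran over 87.3% of the bases in its promoter windows. The strongest had 64.3 (55.8 to 74.6) at +43 bp, and the next, at −903 bp, had 45.2 (38.5 to 53.5).

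DUSP5 encodes a nuclear phosphatase specific for ERK. Its 6 Fra-1 peaks had fold enrichments between 5.03 and 13.4, the strongest at +15.1 kb (10.4 to 17.1), beyond the 3' end of the gene and without an E2F1 peak. The Fra-1 promoter peak, with 11.1 (8.38 to 14.5), was in intron 1, at +3550 bp from the canonical TSS and −1290 bp from an alternative one. E2F1 had 15 peaks in the locus, the strongest with 28.8 (24.4 to 34.1) at +3407 bp and 28.5 (23.2 to 35.1) at +744 bp, both in intron 1, and 23.4 (19.4 to 28.2) at −38 bp, and these 3 intervals overlap. Its 1 MYC peak, with 6.38 (4.41 to 9.66), lay at +28.2 kb.

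DUSP6 encodes the cytoplasmic ERK phosphatase. It had the strongest Fra-1 promoter peak of the 10 genes, with a fold enrichment of 15.1 (10.98 to 20.8) at −109 bp. MYC had 6.85 at −310 bp, from 29 to 31 fragments, and E2F1 had 51.9 (45.2 to 59.7) at +37 bp. This E2F1 peak was 5895 bp long and covered both of the others. The Fra-1 and MYC peaks also overlap windows of the non-coding genes ENSG00000274021 and ENSG00000286608. The other 5 Fra-1 peaks of the locus had between 3.63 and 8.10.

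The Fra-1 and MYC summits of the DUSP6 promoter were 201 bp apart, and the peaks overlapped by 28 bp. The sequence from one summit to the other is shown because it is the only promoter stretch of the 10 genes covered by peaks of all 3 factors. It reads from the MYC to the Fra-1 summit in GRCh37 on the minus strand, that of the gene, with the 28 bp under all 3 peaks in capitals, and no AP-1 word or E-box lay within 50 bp of the summits.
DUSP6 promoter, chr12:89746387-89746588: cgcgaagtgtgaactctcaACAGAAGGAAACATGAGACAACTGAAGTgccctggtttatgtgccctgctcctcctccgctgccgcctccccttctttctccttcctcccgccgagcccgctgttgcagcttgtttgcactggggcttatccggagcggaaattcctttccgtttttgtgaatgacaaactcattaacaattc

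**Figure D2:**
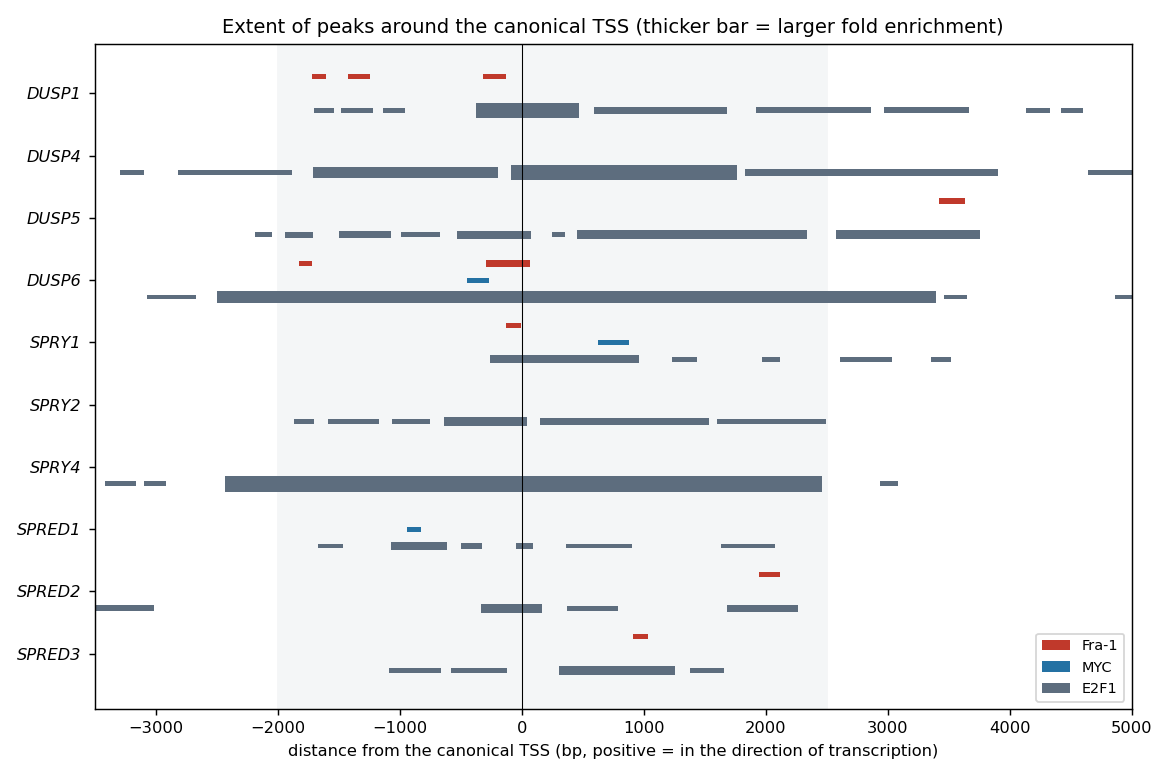
Extent of Fra-1, MYC and E2F1 peaks around the canonical TSS of each gene, with distance in bp on the x axis, shading from −2 kb to +2.5 kb of this TSS, and thicker bars for larger fold enrichment. E2F1 peaks run over much of the window in most genes, with single peaks of 5895 bp at DUSP6 and 4895 bp at SPRY4, whereas Fra-1 and MYC peaks are short.

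The Sprouty genes differed in which factors they held. SPRY1 had promoter peaks of all 3 factors, Fra-1 with a fold enrichment of 6.89 (4.52 to 10.8) at −60 bp, MYC with 5.95 (4.11 to 9.01) at +675 bp in intron 1, and E2F1 with 22.4 (19.1 to 26.5) at +78 bp. The Fra-1 and MYC peaks did not overlap each other, and both lay under the 1 E2F1 peak. The MYC peak had a −log10 q of 4.88 and was lost when at least 5 was required. The strongest Fra-1 peak of the SPRY1 locus lay downstream at +19.4 kb, with 16.4 (12.2 to 22.1), over an E2F1 peak of 9.66 (7.17 to 13.2).

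SPRY2 had no Fra-1 and no MYC peak in its locus, the only one of the 10 genes without Fra-1. It had 6 E2F1 peaks, all in the promoter window, of which the strongest, at −198 bp, had a fold enrichment of 24.6 (19.8 to 31.0). Because the lists hold only peaks past the cutoff of the authors, weaker binding at SPRY2 cannot be seen.

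SPRY4 had the largest E2F1 fold enrichment of the 10 promoters, 68.9 (59.6 to 79.8) at +5 bp, and no Fra-1 or MYC peak in its promoter windows. Its 3 Fra-1 peaks lay upstream, the strongest at −32.1 kb with 13.0 (8.91 to 19.0). E2F1 had a group of 6 peaks in the same stretch, from −32.1 to −38.0 kb, with fold enrichments between 7.23 and 24.95. The strongest of the group, at −38.0 kb with 24.95 (20.2 to 31.1), overlapped the Fra-1 peak of 7.82 (5.37 to 11.5) there.

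SPRED proteins bring the Ras inhibitor neurofibromin to the membrane. SPRED1 had the strongest MYC promoter peak of the 3 genes with one, 7.36 (5.13 to 10.95) at −891 bp, with the E2F1 summit 25 bp away. That E2F1 peak had 21.1 (16.9 to 26.5), the lowest of the 10 best promoter peaks. Fra-1 had 2 peaks, both far from the start, with 8.44 (5.20 to 13.9) at +145 kb and 6.31 (3.87 to 10.8) at −35.9 kb.

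SPRED2 held all 6 of its Fra-1 peaks inside the gene, 5 in intron 1 and 1 in intron 4, and no MYC peak. The strongest, at +2031 bp, had a fold enrichment of 10.5 (6.88 to 16.1). Another, at +65.8 kb, was −28 bp from an alternative start site and had 7.24 (5.49 to 9.56). E2F1 was strongest at +33 bp, with 31.6 (25.3 to 39.7).

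SPRED3 is the only one of the 10 genes with promoter windows of other protein-coding genes in its locus, 6 in all. Its Fra-1 promoter peak of 7.60 (4.23 to 14.0) at +993 bp and its E2F1 peak of 34.7 (28.1 to 43.3) at +976 bp lay 78 and 61 bp from an alternative start, and both also overlapped the window of GGN. Its 2 MYC peaks were in the flanks, at −13.9 kb with 5.91 (4.07 to 9.19) in the window of PSMD8 and at +14.5 kb with 7.32 (4.77 to 11.7) in that of FAM98C. The window of PSMD8 also held the strongest E2F1 peak of the SPRED3 locus, with 40.4 (34.2 to 47.9). These neighbours were named after their values were seen, except FAM98C, and peaks in shared windows cannot be assigned to one gene.

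The AP-1 words near the Fra-1 promoter summits of DUSP5, SPRED2 and SPRED3 are shown because these are the promoter summits with the word within 50 bp. The word was 3 bp from the summit in DUSP5 and at +2031 bp of SPRED2, 1 bp at +65.8 kb of SPRED2 and 44 bp in SPRED3. In SPRED3 only the first base of the word lies in the called Fra-1 peak. Sequences are of GRCh37 on the strand of the gene, plus for DUSP5 and SPRED3 and minus for SPRED2, with the AP-1 word in capitals. That of SPRED3 is short because it overlaps a UTR of an annotated transcript.
DUSP5 intron 1, chr10:112261179-112261245: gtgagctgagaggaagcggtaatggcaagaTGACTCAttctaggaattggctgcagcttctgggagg
SPRED2 intron 1, chr2:65657672-65657738: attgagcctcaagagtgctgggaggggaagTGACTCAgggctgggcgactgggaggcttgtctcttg
SPRED2 intron 1, alternative start, chr2:65593882-65593948: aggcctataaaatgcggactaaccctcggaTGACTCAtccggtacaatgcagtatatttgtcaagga
SPRED3 intron 1, chr19:38880361-38880387: cgttgctgggTGACTCAgtgagctttg

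Ordered by the best promoter peak of E2F1, the genes ran SPRY4, DUSP1, DUSP4, DUSP6, SPRED3, SPRED2, DUSP5, SPRY2, SPRY1 and SPRED1. The counting intervals of neighbours in this order overlapped in 8 of 9 pairs. The exception was DUSP6 (51.9) and SPRED3 (34.7), so 4 genes stood above the other 6 by more than counting error. The median over the 10 genes was 33.2, against 22.02 over all protein-coding genes with an E2F1 promoter peak, and 9 of 10 were above the latter. In 6 of 10 genes the summit of this peak was within 100 bp of the canonical TSS. The share over all protein-coding genes with an E2F1 promoter peak was not computed. For Fra-1 the order was DUSP6, DUSP5, SPRED2, SPRED3, SPRY1 and DUSP1, and for MYC it was SPRED1, DUSP6 and SPRY1, and in both every neighbouring pair had overlapping intervals. These promoter peaks rest on 10 to 52 Fra-1 fragments, 25 to 31 MYC fragments and 78 to 211 E2F1 fragments.

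**Figure D3:**
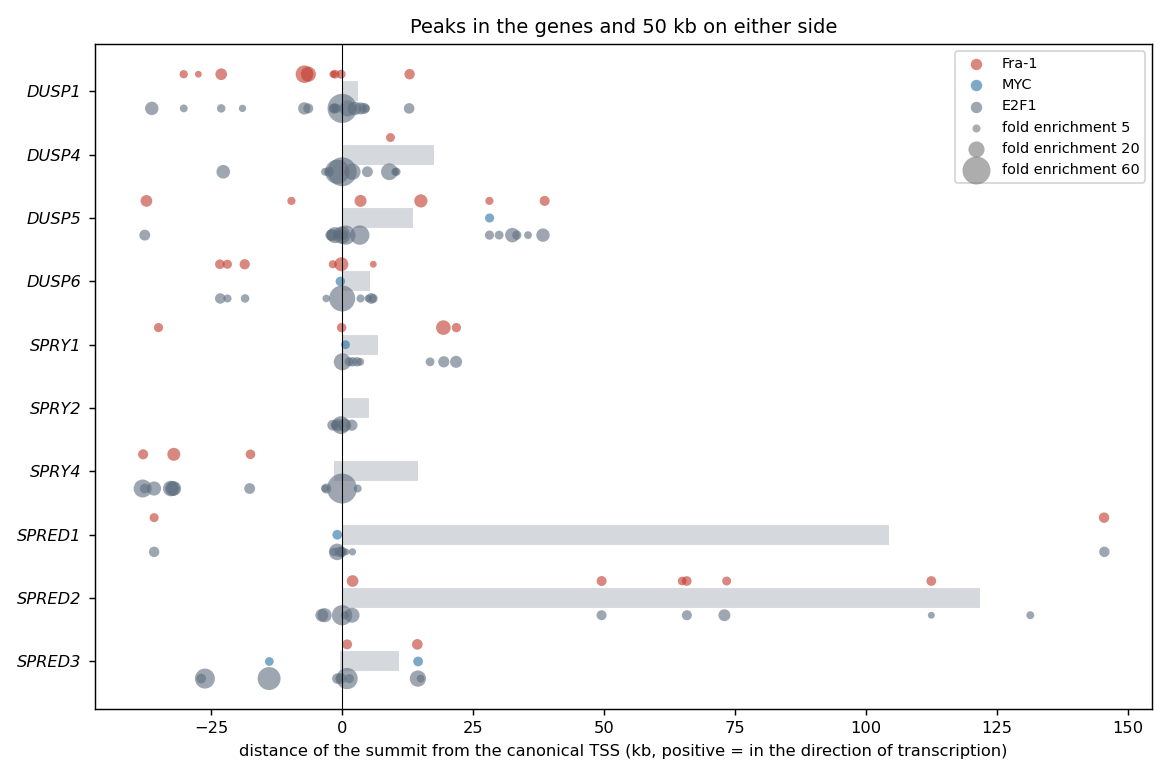
Peak summits of Fra-1 (upper row of each gene), MYC (middle) and E2F1 (lower) by distance from the canonical TSS in kb, with the area of a point in proportion to fold enrichment and the gene as a grey bar. The largest E2F1 points lie near the canonical TSS. At SPRED3, points of 40.4 (−13.9 kb, in the window of PSMD8) and 30.6 (−26.2 kb) lie away from it. The largest Fra-1 fold enrichments, 23.7 and 17.4, lie upstream of DUSP1.

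Counted over the loci, Fra-1 peaks were found at 9 of 10 genes against 55.8% of protein-coding genes, MYC peaks at 5 against 39.5% and E2F1 peaks at 10 against 83.0%. Since loci differ in length, peaks were also counted per 100 kb. The median of the 10 genes was 2.65 for Fra-1 against 0.539 for all protein-coding genes, 0.245 against 0 for MYC, and 8.30 against 2.24 for E2F1. DUSP1, DUSP5, DUSP6, SPRY1, SPRY4, SPRED2 and SPRED3, 7 of 10, were above the upper quartile of protein-coding genes for Fra-1, as were 8 of 10 for E2F1 and 3 of 10 for MYC. The peaks themselves had median fold enrichments slightly under those of the full lists, 7.24 against 8.24 in the Fra-1 library, 6.61 against 6.67 in the MYC library and 8.59 against 8.88 in the E2F1 library. A median of 49.3% of the promoter window bases was under E2F1 peaks, against 3.003% for all protein-coding genes. When peaks within 1 kb were merged, the number of E2F1 peaks went from 102 to 46, as many lay within 1 kb of another.

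**Figure D4:**
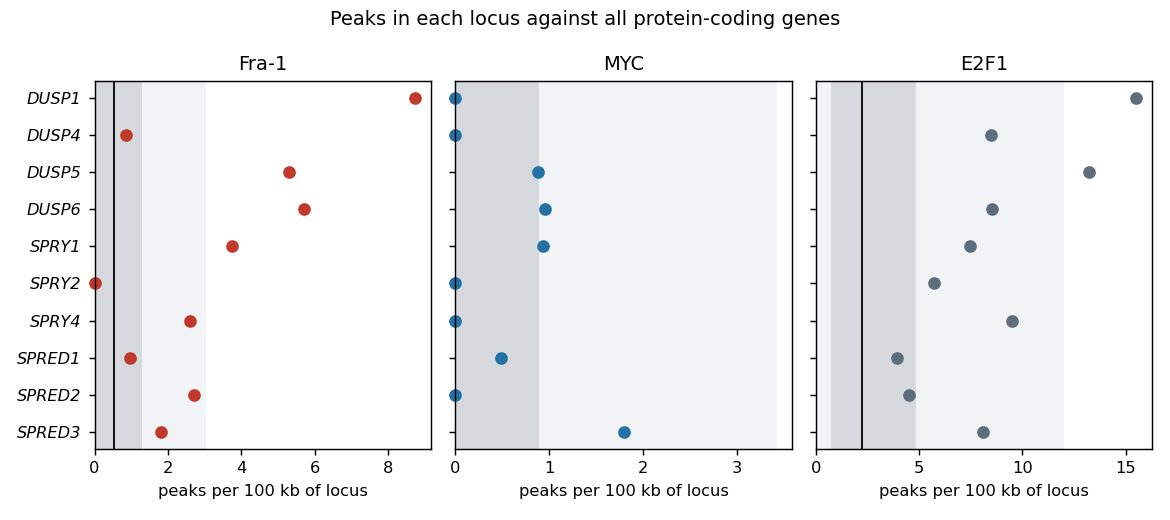
Peaks per 100 kb of locus for each gene (points) and factor, with the median (line), the quartiles (dark grey) and the 5th to 95th percentile (light grey) of all protein-coding genes. DUSP1, DUSP5 and DUSP6 lie at 8.73, 5.28 and 5.70 for Fra-1, whereas SPRY2 lies at 0.

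The local background that enters the fold enrichment differed between loci. For Fra-1 peaks its median was 0.908 fragments at DUSP1 and 2.97 at DUSP5, on the scale of the input, against 1.89 over the full list. The Fra-1 peak at +15.1 kb of DUSP5 had 63 fragments, a background of 2.97 and a fold enrichment of 13.4. That at −7162 bp of DUSP1 had 40 fragments, a background of 0.434 and a fold enrichment of 23.7. The latter background was close to the value of 0.442 for the whole genome. The part of DNA copy number in these values was not tested.

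Peaks of the 3 factors overlapped in 3 stretches, at DUSP5, DUSP6 and SPRED3, and such a stretch was found in the loci of 11.7% of protein-coding genes. Besides the DUSP6 promoter, a stretch of 67 bp lay at +28.2 kb of DUSP5, where the Fra-1 peak had a fold enrichment of 5.03 (3.30 to 7.73), MYC 6.38 and E2F1 6.49 (4.63 to 9.30). It was chosen for display because it lies in no promoter window of any annotated gene, and is printed in GRCh37 on the plus strand. An AP-1 word that begins within it is 45 bp from the MYC summit. The stretch of 46 bp at +14.5 kb of SPRED3, in the window of FAM98C, had a Fra-1 peak of 8.76 (5.38 to 15.0), a MYC peak of 7.32 and an E2F1 peak of 20.4 (15.2 to 27.3). The DUSP5 stretch was the 1 that remained when each pair of peaks had to overlap by 50% of both.
DUSP5 downstream, chr10:112285824-112285890: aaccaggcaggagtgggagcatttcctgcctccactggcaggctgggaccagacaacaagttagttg

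Of the 39 Fra-1 peaks in the loci, 33 overlapped an E2F1 peak (84.6%, 95% Wilson interval 70.3 to 92.8%), against 61.5% in the full list. Outside promoter windows 23 of 28 did so (82.1%, 64.4 to 92.1%), with a median distance of 55 bp between the summits. For such peaks no share of the full list was computed. The loci also held more E2F1 peaks, a median of 8.30 per 100 kb against 2.24 for all protein-coding genes. The part of this density in the overlap was not tested. Conversely, 32 of 102 E2F1 peaks overlapped Fra-1 (31.4%, 23.2 to 40.9%), against 28.3% in the full list. All 6 MYC peaks overlapped E2F1, as did 96.1% in the full list, and 3 of 6 overlapped Fra-1 (50%, 18.8 to 81.2%), an interval that includes the 21.4% of the full list. Peaks of a locus share its chromatin and background, and thus are not independent of each other.

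The AP-1 word lay within 50 bp of 17 of 39 Fra-1 summits (43.6%, 29.3 to 59.0%), against 53.3% over the full list and 1.77% in windows 2 kb to either side. The interval includes the share in the full list. The median fold enrichment was 8.38 with the word and 6.28 without it, against 8.89 and 7.57 over the full list. Of the 3 Fra-1 peaks with the largest fold enrichment, the 2 upstream of DUSP1 had it and the SPRY1 peak at +19.4 kb did not. None of the 6 MYC summits had an E-box (CACGTG) this close, and the 95% Wilson interval reaches 39.03%, against a share of 16.8% over the full list. An E2F word (TTTCCCGC, TTTCGCGC, TTTGCCGC or TTTGGCGC) lay at 0 of 102 E2F1 summits, with an interval that reaches 3.63%, against 1.68% over the full list. The AP-1 word lay at 7 of 102 E2F1 summits, 6.86% (3.36 to 13.5%), against 12.2% over the full list.

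Read across the 4501 bp around the canonical TSS, on both strands, the AP-1 word was present in 4 of 10 promoters against 45.1% of those of protein-coding genes. The E-box was present in 8 of 10 against 46.5%, and CACGCG, an E-box variant bound by MYC, in 9 of 10 against 49.4%. None of the 8 E-boxes lay under a MYC peak, and 6 lay under an E2F1 peak. Of the genes with an E-box, only SPRY1 and SPRED1 had a MYC promoter peak, over 3.40% and 2.41% of their promoter window bases. E2F1 peaks covered a median of 49.3% of the promoter window bases in the 10 genes. These shares are over the windows of all annotated start sites, whereas the words were counted around the canonical TSS. The part of peak coverage in these counts was not tested. The E2F word was present in DUSP4 and SPRY4, 2 of 10 against 19.97%, under the E2F1 peak in both, at 420 and 155 bp from the nearest summit. The CRE word was present in DUSP1 alone, against 5.49%, and the ETS word CCGGAAGT in none, against 11.1%.

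The promoters also varied in base composition. Within 500 bp of the canonical TSS G and C made up a median of 66.1% of the bases, against 61.3% for protein-coding genes, and it ran from 41.5% in SPRY1 to 75.1% in DUSP5. The ratio of observed to expected CpG had a median of 0.801 against 0.726, from 0.565 in SPRED3 to 1.13 in DUSP5. The part of base composition in the E2F1 peaks was not tested.

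Other genes of the pathway were counted from a list of 32. Among 17 genes of the Ras, Raf and ERK core, Fra-1 promoter peaks were found in 3, those of MYC in 4 and those of E2F1 in 15. Of 8 other dual-specificity phosphatase genes, 2 had Fra-1, 2 MYC and 6 E2F1. Of 7 ERK-response genes, 3 had Fra-1, 1 MYC and 6 E2F1. Among all protein-coding genes the shares were 13.2% (Fra-1), 17.8% (MYC) and 61.3% (E2F1), and 4.67% had promoter peaks of all 3 factors. With so few genes in each group, no difference from these shares was tested. All 3 factors were found at MAP2K1, which encodes the ERK kinase MEK1, at the phosphatase gene DUSP14, and at FOSL1, the gene for Fra-1 itself. At FOSL1 the best promoter peaks had fold enrichments of 15.1 (Fra-1), 15.2 (MYC) and 61.9 (E2F1).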

How the data were processed

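According to the methods of the study, the authors used Trimmomatic for trimming, Bowtie for alignment to hg19 with repeats masked, and MACS2 for peaks of each library against 1 input, at a q-value cutoff of 0.01 and without duplicate reads. Bowtie 0.12.5, Trimmomatic 0.27 and SAMtools are named in the submitters' processing notes, and the file headers name MACS2 2.0.10.20120913. Repeats masked in the genome can give no peaks. The deposited signal is the summit pileup in fragments, scaled by MACS2 to the depth of the input, and fragment numbers were recovered from it to within 1 to 3. The deposited fold enrichment is a ratio to the background estimated from the input, and the authors gave p- and q-values as −log10 values. The 3 BED files hold the same peaks and were not used.

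Coordinates are hg19 (GRCh37), 1-based, with GENCODE 44 mapped to GRCh37. Overlap was counted from 1 bp. A peak was classed as promoter, then gene, then flank. The members and lists were chosen with earlier results of these data known. All 10 genes, the best promoter peak of each, and every region with all 3 factors were to be named, and from the pathway list those with all 3 factors. Shares have Wilson intervals. No test was made, since each factor has 1 library. The alternatives were stricter peak thresholds, equal peak numbers, other windows and flanks, merged peaks, stricter overlap, wider motif windows, and order by pileup or −log10 q. Planted peaks, overlaps and motifs were all recovered when the procedures were tested on simulated data. pysam 0.24.0, matplotlib 3.10.9, scipy 1.17.1, pandas 2.3.3 and numpy 2.4.6 were used in Python 3.11.15.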

Additional observations from a re-analysis of the deposited data

How the results depend on the processing

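Of 58 values computed under alternatives, 48 stayed within 1.5 times the reported count or within counting error, and 10 moved further. A −log10 q of at least 5 left 1 gene, DUSP6, with promoter peaks of all 3 factors. With 4867 peaks in each list, promoter peaks of all 3 factors were found at 1 gene, promoter peaks of Fra-1 at 2 genes, Fra-1 peaks in the loci numbered 7 and E2F1 peaks 12, and 1 stretch had all 3 factors. Reciprocal overlap of 50% likewise left 1 such stretch. Flanks of 100 kb gave 64 Fra-1 and 14 MYC peaks, and merging within 1 kb gave 46 E2F1 peaks. The restrictions, flanks and merging change the set of peaks counted, and reciprocal overlap changes the criterion alone. No paired analysis was possible because each factor has 1 library. Fragment numbers limit the precision of single peaks, with as few as 10 at a Fra-1 promoter summit.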
